A study of Arabidopsis thaliana with 8 samples.

Results

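On-off switches are defined here as probe sets that were dark on every array of one genotype and bright on every array of another. An on switch had a log2 signal above 6 on both arrays of the triple mutant fil-8 yab3-2 yab5-1 and at or below 4 on all 4 wild-type arrays. An off switch had a log2 signal at or below 4 on both triple mutant arrays and above 6 on all 4 wild-type arrays. Of 22746 probe sets, control probe sets aside, 48 met the rule, 35 of them on and 13 off. The rule also sets aside 11 genes by name, of which 7 on and 2 off switches had met it. CCR2 and EXPA20, also on that list, had not met it. This left 39 members, 28 on and 11 off. The members were thus chosen by their log2 signals in the triple mutant and in wild type, so the difference of these groups is given below as a description, with no test.

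The study set shoot apices of mutants that lack several YABBY genes against apices of wild type, on 1-colour Affymetrix arrays hybridised with labelled total RNA. The groups are the triple mutant fil-8 yab3-2 yab5-1 with 2 arrays, the double mutant fil-8 yab3-2 with 2 arrays, and wild type with 4 arrays. All plants are labelled as the ecotype Ler, were taken at 14 days after sowing and were grown in short days. The labels leave unsaid whether replicate arrays hold RNA of separate plantings. The spread between arrays may therefore be technical, and it is the only spread that the p-values measure. In bulk tissue, fewer cells of a type and less RNA per cell cannot be told apart. Whether a dark or bright probe set reflects the amount of RNA alone was not tested.

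YABBY proteins are plant transcription factors expressed on the abaxial side of young lateral organs. FIL, YAB3 and YAB5 are expressed in leaves, where they act with partly shared roles in blade outgrowth, in abaxial identity and in keeping meristem programmes out of the leaf. Mutants that lack several of them make narrow leaves with weakened polarity.

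Wild type held 2 pairs of arrays, 1 with 2 and 3 with 4. Pearson's r across the probe sets was 0.970 inside either pair, against 0.861 to 0.888 for wild-type arrays of different pairs. Both mutants were nearer to the second pair, with r of 0.913 to 0.956, than to the first, with r of 0.850 to 0.914. The rule is looser with fewer arrays. It found 32 on and 22 off switches with wild-type arrays 3 and 4 alone, and 47 on and 76 off with arrays 1 and 2 alone. Tissue identity could hardly be checked. Of the meristem, epidermis, green leaf, flower, root and seed markers looked up, CLV3 and EXPA7 alone have a named probe set. The stem cell gene CLV3 had log2 signals of 2.19 and 2.19 in the triple mutant, 4.32 and 3.89 in the double mutant, and 2.10, 2.16, 2.59 and 2.19 in wild type, so it was dim in apices of every group. The root hair expansin gene EXPA7 was at 2.10 on all 8 arrays.

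Of the targeted genes, YAB3 and YAB5 were no switches. YAB3 had log2 signals of 4.40 and 5.50 in the triple mutant, 3.35 and 4.99 in the double mutant, and 8.46, 8.35, 9.48 and 8.91 in wild type. It was lower on every mutant array than on every wild-type array, yet neither triple mutant array was at or below 4. YAB5 had 5.28 and 5.02 in the triple mutant, 6.03 and 5.60 in the double mutant, and 7.52, 7.17, 5.51 and 5.32 in wild type, where arrays 3 and 4 lay close to the triple mutant. INO, the ovule YABBY gene, was at the floor of about 2.10 on every array, and FIL, YAB2 and CRC were not analysed here. In the fit described below, YAB3 and YAB5 were tested, and YAB3 was called lowered in both mutants (limma, -3.85 ± 0.55 log2 units with adjusted p = 0.013 in the triple mutant and -4.63 ± 0.55 with adjusted p = 0.033 in the double mutant), whereas YAB5 was not called. The triple mutant call was lost without either triple mutant array (adjusted p = 0.17 and 0.091), and the double mutant call without any 1 of the 8 arrays (adjusted p = 0.057 to 0.28).

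Of the 28 on switches, 15 probe sets name 1 gene, 1 can match several genes and 12 are unnamed here. Of the 11 off switches, 5 name 1 gene, 1 can match several and 5 are unnamed. All 28 and all 11 were among the tested probe sets, which needed a log2 signal above 4 on at least 2 arrays. A member passes that filter through the group where it is bright, so passing it says nothing about the members.

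The switches were sorted into states by their double mutant signals. A switch is called like triple where both double mutant arrays were past the same threshold as the triple mutant arrays, like wild type where both were on the wild-type side, and between otherwise. Among the 28 on switches, 0 were like triple, 12 were between and 16 were like wild type. Among the 11 off switches, 5 were like triple, 3 were between and 3 were like wild type. The last 2 of these counts were 1 and 5 without double mutant array 2, and the off switches between were 5 without wild-type array 3. The double mutant therefore had none of these 28 on switches bright on both arrays and 5 of these 11 off switches dark on both. The 0 holds for the members alone. BGLU45, an on switch set aside by name, was above 6 on both double mutant arrays, as was AT1G33790, which just missed the rule.

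**Figure D1:**
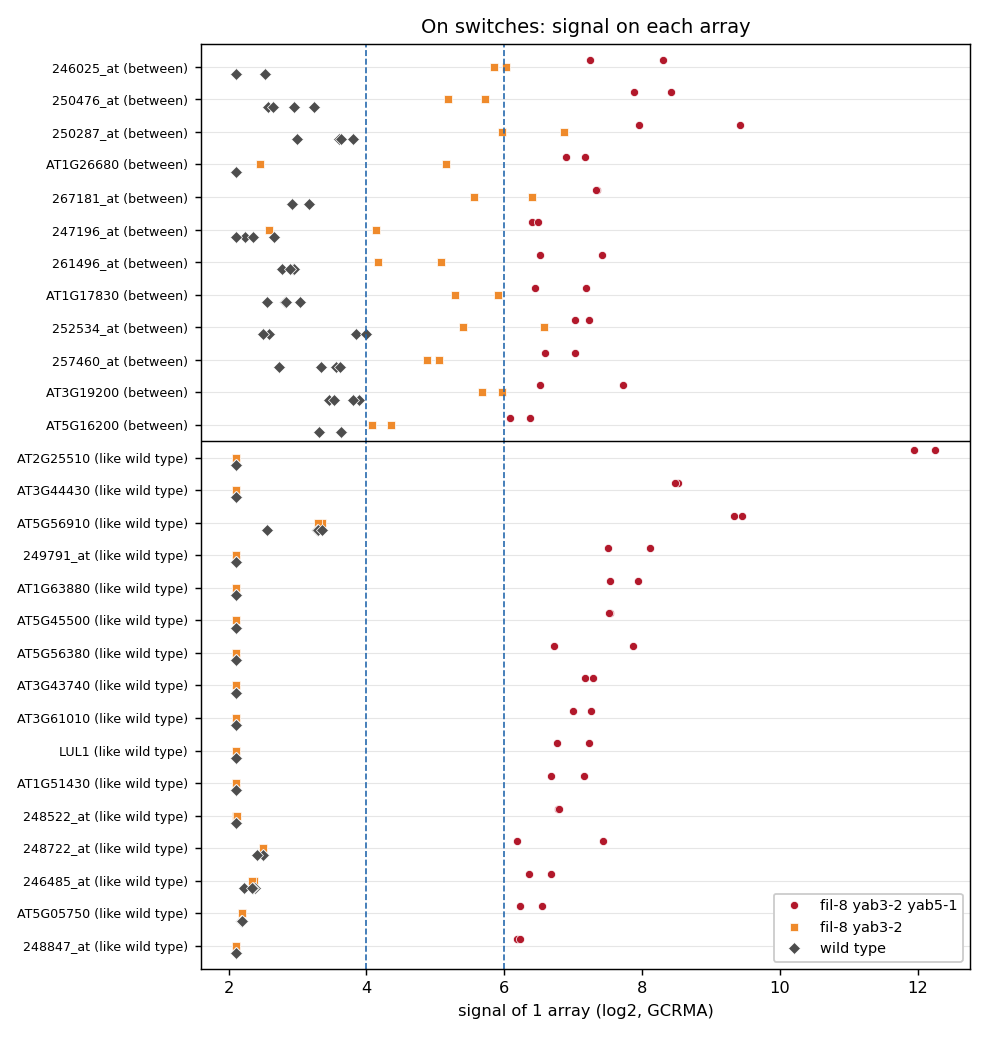
Log2 signal of each on switch (rows) on each array, with triple mutant, double mutant and wild-type arrays as separate symbols and dashed lines at the thresholds of 4 and 6. The 16 lower rows have double mutant and wild-type arrays together at or below 3.35, and the 12 upper rows have at least 1 double mutant array between the thresholds.

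The largest class was bright in the triple mutant alone. In these 16 on switches the triple mutant arrays lay between 6.18 and 12.26, the double mutant arrays between 2.10 and 3.35 and the wild-type arrays between 2.10 and 3.35. For most of them the double mutant and wild-type signals sat at the lowest value the normalization gives, about 2.10, with almost no spread. Of the 28 on switches, 14 stayed below a log2 signal of 2.5 on all 6 double mutant and wild-type arrays. Such a fold difference has no measured upper end, and is given as a lower bound against the threshold of 4.

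AT2G25510, whose role is not described here, was the brightest. It had log2 signals of 11.94 and 12.26 in the triple mutant, against 2.10 on both double mutant arrays and 2.10 on all 4 wild-type arrays. Its triple mutant signal was at least 274-fold above the threshold of 4, the highest such bound among the on switches, which ran down to 4.62-fold with a median of 8.74-fold. AT5G56910 had 9.34 and 9.45 in the triple mutant, 3.35 and 3.30 in the double mutant, and 3.28, 2.56, 3.30 and 3.35 in wild type. AT3G44430 had 8.53 and 8.47 in the triple mutant, and 2.11 on each of the other 6 arrays. In all 3 genes the triple mutant arrays stood far apart from the rest and close to each other.

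For several switches of this class the gene family is known. AT1G63880 encodes a TIR-NBS-LRR protein, of the intracellular immune receptors. It had log2 signals of 7.53 and 7.94 in the triple mutant, and 2.10 on every double mutant and wild-type array. AT3G43740, which encodes a leucine-rich repeat protein, had 7.18 and 7.29 in the triple mutant and 2.10 on all other arrays. LUL1, a LOG2-like ubiquitin ligase, had 6.77 and 7.23 in the triple mutant and 2.10 on all other arrays. AT5G56380, of the large F-box family whose members select proteins for ubiquitination, had 6.72 and 7.87 in the triple mutant and 2.10 on all other arrays, so its triple mutant arrays differed by more than those of LUL1. AT5G05750 encodes a protein with a DnaJ domain, the mark of Hsp70 co-chaperones. Its signals were 6.23 and 6.55 in the triple mutant, 2.20 and 2.20 in the double mutant, and 2.18, 2.20, 2.20 and 2.20 in wild type, which put it just above the threshold of 6.

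The other named switches of this class were AT5G45500, AT3G61010 and AT1G51430. AT5G45500 had log2 signals of 7.54 and 7.53 in the triple mutant and 2.10 on all other arrays. AT3G61010 had 7.00 and 7.26 in the triple mutant, and AT1G51430 had 6.67 and 7.16, with 2.10 on all other arrays for both genes. AT3G61010 is the 1 member gene with a further probe set of its own, which is no member. That probe set read 4.56 and 4.76 in the triple mutant and 2.10 on the double mutant and wild-type arrays, so it was dimmer than the member but again above the other genotypes in the triple mutant alone. Among the switches of this class without a single gene name, 249791_at was the brightest, with 8.11 and 7.51 in the triple mutant and 2.10 or 2.11 on all other arrays. The remaining 4 were 248522_at, 248722_at, 246485_at and 248847_at, with triple mutant signals between 6.18 and 7.44.

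The 12 other on switches were graded. Their triple mutant arrays lay between 6.08 and 9.43, their double mutant arrays between 2.46 and 6.87, and their wild-type arrays between 2.10 and 3.99. The triple mutant was above the double mutant on every array in all 12. In 11 of the 12 both double mutant arrays were also above all 4 wild-type arrays, the exception being 247196_at. Such an order was seen in 8.61% of all tested probe sets. The rule puts wild type at or below 4 and the triple mutant above 6. Any double mutant array between these thresholds must fall between the other genotypes, so nothing is read from these counts. As a share of the triple mutant's difference from wild type on the log2 scale, the double mutant's mean had a median of 52.7% in these 12 switches and ranged from 24.8% to 70.7%. In the 16 switches above, this share was 3.22% or less.

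Of the graded switches, 4 name a gene. AT1G17830 had log2 signals of 6.45 and 7.19 in the triple mutant, 5.28 and 5.91 in the double mutant, and 2.81, 2.56, 2.83 and 3.03 in wild type, a share of 69.5%. AT3G19200 had 6.52 and 7.73 in the triple mutant, 5.96 and 5.67 in the double mutant, and 3.46, 3.89, 3.52 and 3.81 in wild type, a share of 62.2%. In both genes the 3 genotypes formed a ladder without overlap. AT5G16200 had 6.37 and 6.08 in the triple mutant, 4.08 and 4.35 in the double mutant, and 3.63, 3.63, 3.31 and 3.63 in wild type. Its double mutant arrays were thus only just past the wild-type arrays, and its share was 24.8%.

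AT1G26680 encodes a member of the B3 family of DNA-binding proteins. It had log2 signals of 6.89 and 7.17 in the triple mutant, 5.16 and 2.46 in the double mutant, and 2.10 on all 4 wild-type arrays. Its intermediate state rests on double mutant array 1, since array 2 was close to wild type. The same held for the unnamed 247196_at, with 6.41 and 6.48 in the triple mutant, 4.14 and 2.59 in the double mutant, and 2.24, 2.10, 2.35 and 2.66 in wild type. Double mutant array 1 was above array 2 in 8 of the 12 graded switches, by at most 2.70 log2 units, the gap in AT1G26680.

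The 7 other graded switches are unnamed here. The probe set 246025_at had log2 signals of 7.24 and 8.31 in the triple mutant, 5.86 and 6.03 in the double mutant, and 2.10, 2.10, 2.53 and 2.53 in wild type. For 267181_at the signals were 7.35 and 7.33 in the triple mutant, 6.40 and 5.57 in the double mutant, and 2.91, 2.91, 2.91 and 3.16 in wild type. For 250287_at they were 9.43 and 7.96 in the triple mutant, 5.97 and 6.87 in the double mutant, and 3.60, 3.81, 2.99 and 3.64 in wild type. Each of these 3 had 1 double mutant array past the threshold of 6, as had 252534_at, so they lay across the threshold of the bright state.

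The probe set 252534_at had 7.03 and 7.23 in the triple mutant, 6.57 and 5.41 in the double mutant, and 2.58, 2.49, 3.84 and 3.99 in wild type. For 250476_at the signals were 7.88 and 8.42 in the triple mutant, 5.73 and 5.18 in the double mutant, and 2.57, 3.24, 2.94 and 2.65 in wild type. In both the genotypes did not overlap, although 252534_at met the rule by only 0.0100 log2 units on wild-type array 4. For 261496_at the signals were 6.52 and 7.41 in the triple mutant, 5.08 and 4.16 in the double mutant, and 2.93, 2.78, 2.94 and 2.89 in wild type. For 257460_at they were 6.59 and 7.03 in the triple mutant, 5.06 and 4.88 in the double mutant, and 2.73, 3.56, 3.61 and 3.35 in wild type. These last 2 had double mutant signals near the middle of the gap, with shares of 42.5% and 47.4%.

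**Figure D2:**
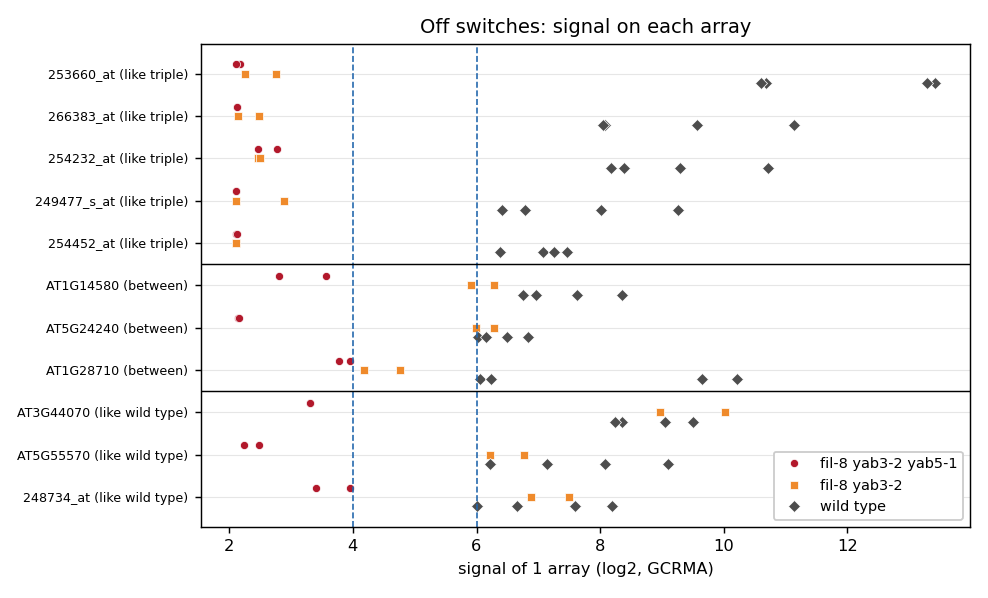
Log2 signal of each off switch (rows) on each array, with triple mutant, double mutant and wild-type arrays as separate symbols and dashed lines at the thresholds of 4 and 6. In the 5 upper rows both mutants lie at or below 2.89, in the middle 3 rows the double mutant is between, and in the 3 lower rows it lies above 6.

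Of the 11 off switches, 5 were already dark in the double mutant. Whether on and off switches differ in their double mutant states was not tested, and with 1 threshold of 5 in place of 4 and 6, 22 of 129 on and 13 of 78 off switches were like triple. In these 5 the triple mutant arrays lay between 2.10 and 2.77, the double mutant arrays between 2.10 and 2.89 and the wild-type arrays between 6.39 and 13.43. None of the 5 has a single gene name. In 3 of them the arrays of the 2 mutants overlapped. In the other two, 253660_at and 266383_at, both double mutant arrays were above both triple mutant arrays, but all 4 were at or below 2.76, where order carries little.

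The probe set 253660_at had the highest wild-type signal of all members. Its log2 signals were 2.17 and 2.10 in the triple mutant, 2.25 and 2.76 in the double mutant, and 10.69, 10.60, 13.43 and 13.30 in wild type. The wild-type mean was at least 257-fold above the threshold of 4. For 266383_at the signals were 2.13 and 2.13 in the triple mutant, 2.14 and 2.47 in the double mutant, and 8.08, 8.05, 11.15 and 9.57 in wild type. For 254232_at they were 2.77 and 2.47 in the triple mutant, 2.47 and 2.49 in the double mutant, and 8.17, 8.38, 9.30 and 10.72 in wild type. All 3 were clearly bright on wild-type arrays 1 and 2 and brighter still on arrays 3 and 4.

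The probe set 249477_s_at, which can match several genes, had 2.10 and 2.11 in the triple mutant, 2.11 and 2.89 in the double mutant, and 6.79, 6.41, 9.25 and 8.02 in wild type. For 254452_at the signals were 2.11 and 2.12 in the triple mutant, 2.11 and 2.10 in the double mutant, and 7.07, 6.39, 7.25 and 7.46 in wild type. The last had the most even wild-type arrays of the 5. In 9 of the 11 off switches the mean of wild-type arrays 3 and 4 was above that of arrays 1 and 2, by up to 3.78 log2 units, so their wild-type level depends on the pair.

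The off switches that kept signal in the double mutant include a transcription factor gene and a lipid kinase gene. AT1G14580 is BLUEJAY, a C2H2 zinc finger gene of the INDETERMINATE DOMAIN (IDD) family, whose members act in root tissue patterning and other development. It had log2 signals of 3.57 and 2.80 in the triple mutant, 6.29 and 5.91 in the double mutant, and 6.96, 7.63, 6.76 and 8.36 in wild type. The double mutant was below every wild-type array and above both triple mutant arrays, at a share of 31.2% of the triple mutant's difference. AT5G24240, which encodes a phosphoinositide kinase family protein, had 2.14 and 2.15 in the triple mutant, 6.28 and 5.99 in the double mutant, and 6.49, 6.84, 6.03 and 6.15 in wild type. It is classed as between because array 2 was just under 6, but double mutant and wild-type arrays overlapped and the share was 5.79%.

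AT1G28710, of the nucleotide-diphospho-sugar transferase family, had log2 signals of 3.95 and 3.77 in the triple mutant, 4.76 and 4.18 in the double mutant, and 6.06, 6.24, 10.22 and 9.64 in wild type. The double mutant was thus near the triple mutant, at a share of 85.4% of the triple mutant's mean difference from wild type. The pairs of wild-type arrays differed by more than the triple mutant differed from arrays 1 and 2.

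AT3G44070, AT5G55570 and 248734_at were like wild type in the double mutant. AT3G44070 had log2 signals of 3.31 and 3.31 in the triple mutant, 10.02 and 8.97 in the double mutant, and 8.36, 8.24, 9.05 and 9.51 in wild type, so the double mutant was not below wild type. AT5G55570 had 2.23 and 2.47 in the triple mutant, 6.77 and 6.22 in the double mutant, and 9.10, 8.09, 6.22 and 7.14 in wild type. Its double mutant signals lay within the range of wild-type arrays 3 and 4 and were under those of arrays 1 and 2. For 248734_at they were 3.41 and 3.95 in the triple mutant, 7.50 and 6.88 in the double mutant, and 6.01, 6.66, 7.59 and 8.20 in wild type.

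**Figure D3:**
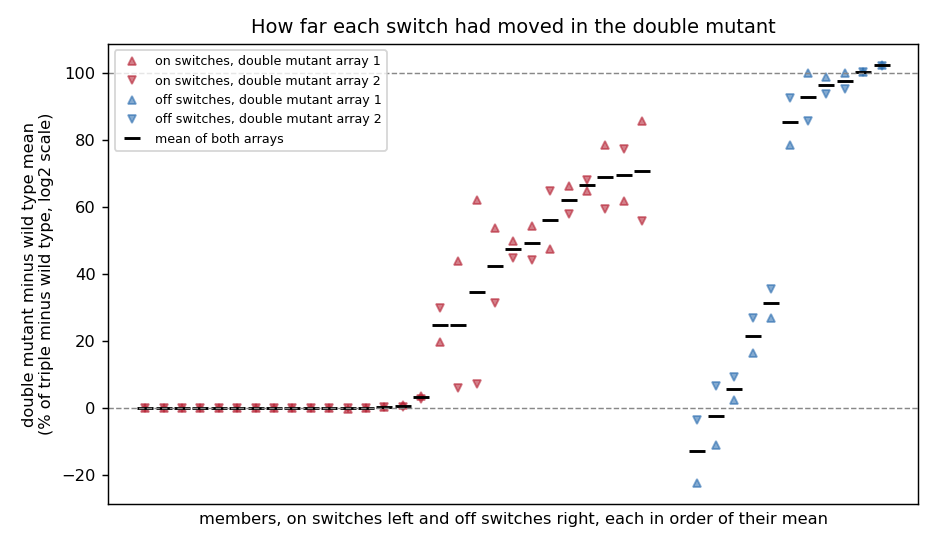
Difference of each double mutant array from the wild-type mean, as a percentage of the triple mutant's mean difference from wild type on the log2 scale, with on switches left and off switches right and a bar for the mean of both arrays. The 16 on switches like wild type lie at 3.22% or less, the 12 graded ones have means from 24.8% to 70.7%, and the 5 off switches that were dark in both mutants have means of 92.8% to 102%.

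The double mutant arrays took no part in the choice of members, whereas the wild-type and triple mutant arrays did. Differences were tested with limma over all 13888 probe sets, with Benjamini-Hochberg adjusted p under 0.05 as the threshold. Of the 28 on switches, 4 were called raised in the double mutant against wild type, where 0.0936% of all tested probe sets were. AT1G17830 differed by 2.78 ± 0.29 log2 units (SE, limma adjusted p = 0.019). The other three were 246025_at at 3.63 ± 0.32 (adjusted p = 0.012), 267181_at at 3.01 ± 0.26 (adjusted p = 0.012) and 250476_at at 2.61 ± 0.29 (adjusted p = 0.023). All 4 come from the graded class, which was sorted by these same double mutant arrays. The median difference was 0.03 log2 units over the 28 on switches and -3.57 over the 11 off switches, against 0.01 over all tested probe sets. This comparison shares its wild-type arrays with the choice of members. The counts and adjusted p-values of members in it, here and below, are therefore read only as a description.

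Of the 11 off switches, 4 were called lowered in the double mutant against wild type, where 0.072% of all tested probe sets were. These were 253660_at at -9.50 ± 0.89, 266383_at at -6.91 ± 0.83, 254232_at at -6.66 ± 0.67 and 254452_at at -4.94 ± 0.30 (limma adjusted p = 0.014, 0.034, 0.018 and 0.0035). The fifth switch dark in both mutants, 249477_s_at, differed by -5.12 ± 0.75 and did not pass (adjusted p = 0.082). BLUEJAY differed by -1.33 ± 0.47 (adjusted p = 0.67), which is also short of the threshold.

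These calls depend on the filter and on both double mutant arrays. With no filter on dim probe sets, 0 on switches (adjusted p = 0.051 to 0.13) and 1 off switch were called, among 12 of 22746 probe sets. Without double mutant array 1 no on switch and no off switch was called (limma, which then called 0 of 13823 probe sets), and without array 2 there were 2 on and 1 off. With wild-type arrays 3 and 4 alone, 3 on and 6 off switches were called, among 49 of 13664 probe sets, and AT1G17830 was no longer among them (adjusted p = 0.065). With arrays 1 and 2 alone there were 9 on and 7 off, among 1790 of 13734 probe sets, so the counts of these fits cannot be set against each other. The call of AT1G17830 was also lost without any 1 of the wild-type arrays (adjusted p = 0.052 to 0.083). Its difference in those 4 fits was 2.70 to 2.86 log2 units. The call of 250476_at was also lost without either triple mutant array or wild-type array 1, 3 or 4 (adjusted p = 0.055 to 0.083), and that of 266383_at without either triple mutant array or wild-type array 1, 2 or 4 (adjusted p = 0.051 to 0.11).

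The arrays were also compared without a fit. Both double mutant arrays were above all 4 wild-type arrays in 11 of the 28 on switches, or 39.3%, against 8.61% of all tested probe sets. Both were below all wild-type arrays in 7 of the 11 off switches, or 63.6%, against 6.37% of all tested probe sets. The wild-type arrays here are again those that chose the members, which favours such a result, so nothing is read from these shares.

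A further comparison set the triple mutant against the double mutant, which by its label carries no yab5-1 allele. Of the on switches, 19 of 28 were called raised in the triple mutant, where 0.547% of all tested probe sets were. Of the off switches, 2 of 11 were called lowered, where 0.13% of all tested probe sets were. The triple mutant arrays chose the members, so nothing is read from these shares, and the members' differences are given as a description with no p-value. All 16 on switches of the class like wild type were among the 19. Most of their double mutant arrays were at the floor, so their differences have no measured size. The other three were AT5G16200 at 2.01 ± 0.23 (SE), 250476_at at 2.69 ± 0.33 and 247196_at at 3.08 ± 0.47 log2 units.

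The called off switches were AT3G44070 at -6.19 ± 0.51 (SE) and AT5G24240 at -3.99 ± 0.31 log2 units. BLUEJAY differed by -2.92 ± 0.54 and was not called. Without either triple mutant array no member was called in this comparison. The filter then left out the 16 on switches like wild type, which are bright on the triple mutant arrays alone. The call of 247196_at was lost in 13 of the 16 alternative fits. AT5G16200 and 250476_at were also not called without either double mutant array.

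The IDD relatives of BLUEJAY were looked up as a family. The list holds 16 IDD genes, of which 5 are named by a probe set and 4 passed the filter. In the triple mutant against wild type 1 was raised and 1, BLUEJAY itself, which the rule chose on this contrast, was lowered, where 2.22% of all tested probe sets were raised and 1.66% lowered. IDD16 had log2 signals of 4.83 and 4.13 in the triple mutant, 2.38 and 2.73 in the double mutant, and 2.24, 2.24, 2.24 and 2.37 in wild type. It differed by 2.20 ± 0.24 (SE, limma adjusted p = 0.0037), the opposite direction to BLUEJAY, but stayed under the threshold of 6. IDD16 passed the filter through its triple mutant arrays alone, so its call is read only as a description. The call held without any 1 double mutant or wild-type array (adjusted p at most 0.016), and without 1 triple mutant array the gene did not pass the filter. AT5G60470 was at the floor on every array. JKD, which encodes the root patterning factor JACKDAW, had 5.85 and 6.19 in the triple mutant, 6.11 and 5.38 in the double mutant, and 4.89, 5.15, 4.25 and 4.23 in wild type, and did not pass (difference 1.39 ± 0.35, adjusted p = 0.081). AT3G45260 did not pass either, at -2.05 ± 0.69 (adjusted p = 0.16).

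The positions of the named members were read from the gene order of the TAIR10.1 annotation, which played no part in the rule. Chromosome 1 holds 4 named on switches and 2 named off switches, chromosome 2 holds 1 on switch, chromosome 3 holds 4 on and 1 off, chromosome 4 holds 0, and chromosome 5 holds 6 on and 2 off. Of the tested probe sets that name 1 gene, 26.3% lie on chromosome 1, 14.6% on chromosome 2, 20.9% on chromosome 3, 14.3% on chromosome 4 and 23.9% on chromosome 5. AT4G22490, an off switch that was set aside by name, lies on chromosome 4. No 2 of the named members were adjacent in gene order. On chromosome 3 the off switch AT3G44070 stands 27 protein-coding genes from the on switch AT3G43740 and 38 from the on switch AT3G44430. On chromosome 5 the off switch AT5G55570 stands 88 genes from the on switch AT5G56380, which stands 55 from AT5G56910. AT2G25510 is the 1 named member on the chromosome of FIL and YAB5, and stands 111 genes from YAB5. AT2G25450, an on switch set aside by name, lies on that chromosome too, with a locus number near that of AT2G25510. It had log2 signals of 10.24 and 10.45 in the triple mutant and 2.10 on all other arrays. The set-aside off switch AT5G55450, at 3.03 on both triple mutant arrays, likewise has a locus number near that of AT5G55570. Places between set-aside genes and members were not counted.

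Only some of the genes beside the switches could be tested. Within 5 places on either side of the 20 named members, 53 other genes had a named probe set that passed the filter. The rest were not looked at. Beside on switches 3 of 38 were called raised in the triple mutant against wild type, or 7.89%, against the 2.22% over all tested probe sets, and 0 were called lowered. Beside off switches 0 of 15 were called in either direction. The median difference was 0.28 log2 units beside on switches and -0.23 beside off switches, against -0.03 over all tested probe sets.

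The called neighbours were all above a log2 signal of 4 on every wild-type array, unlike the on switches. AT5G45510, the next gene to AT5G45500, had log2 signals of 7.39 and 7.43 in the triple mutant, 5.69 and 5.90 in the double mutant, and 5.30, 5.50, 5.72 and 5.53 in wild type. It was higher in the triple mutant by 1.90 ± 0.19 (SE, limma adjusted p = 0.0027). AT3G60980, which stands 2 places from AT3G61010, had 7.23 and 7.03 in the triple mutant, 4.47 and 4.08 in the double mutant, and 4.74, 5.43, 4.93 and 4.61 in wild type. It was higher by 2.20 ± 0.27 (adjusted p = 0.0072). In neither were the double mutant arrays above all wild-type arrays, and in AT3G60980 they were below them.

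AT1G63840, which stands 5 places from AT1G63880, had log2 signals of 8.33 and 8.58 in the triple mutant, 7.59 and 7.63 in the double mutant, and 6.95, 7.29, 6.43 and 6.95 in wild type. It was higher in the triple mutant by 1.55 ± 0.26 (limma adjusted p = 0.024). Its genotypes formed a ladder without overlap, unlike the switch beside it. AT5G45510 and AT3G60980 lost their calls without either triple mutant array (adjusted p = 0.074 to 0.13). AT1G63840 lost its call without either array of either mutant and without wild-type array 1 or 4 (adjusted p = 0.052 to 0.28).

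**Figure D4:**
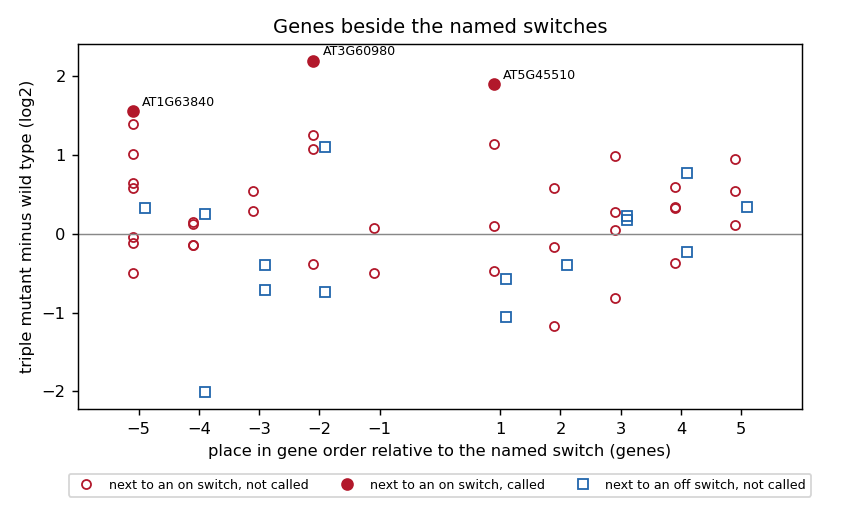
Log2 difference of triple mutant minus wild type for 53 tested genes by their place in gene order from the named switch, with circles beside on switches, squares beside off switches and filled symbols for called genes. The 3 called genes are AT5G45510, AT3G60980 and AT1G63840, with differences of 1.90, 2.20 and 1.55.

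Probe sets lay on both sides close to the thresholds. Just inside for the on switches, AT5G16200 met the rule by 0.0842 log2 units and AT3G19200 by 0.114. Just outside, AT1G33790 missed it by 0.0154 because wild-type array 3 read 4.02. That gene had 9.29 and 9.49 in the triple mutant and 6.15 and 6.18 in the double mutant. Just inside for the off switches, AT5G24240 met the rule by 0.0287 and AT1G28710 by 0.0511, and just outside, AT1G12080 missed it by 0.150 and AT3G56810 by 0.162. Within 0.5 log2 units of the thresholds, 11 on switches lay inside and 28 probe sets outside, and 7 off switches lay inside and 11 probe sets outside.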

How the data were processed

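The authors deposited 1 log2 signal per probe set and array. Per the submitters' processing notes it comes from GCRMA (R 2.7.2), a method that models background, normalizes by quantiles and summarises probes. Its settings are not stated. That the scale is log2 follows from the range of 2.10 to 15.76.

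Of 22810 rows, 64 control probe sets were set aside. Genes were named by the platform annotation, updated through the TAIR10.1 gene table: 13513 probe sets name 1 gene (13436 matched), 503 several and 8730 none. Members were found with Python 3.11.15 (pandas 2.3.3) and figures drawn with matplotlib 3.10.9. Fits used limma 3.58.1 in R 4.3.3 on all 8 arrays as 3 groups, with 5 residual degrees of freedom, two-sided, on probe sets above a log2 signal of 4 on at least 2 arrays, and were tested on simulated data. The median log2 signal per array was 5.74 to 5.88, and the number of arrays limits precision.

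Members and lists were chosen with earlier results of these data known. Named are all members with 1 gene, unnamed members by probe set, the YABBY and IDD genes, and called neighbours. Signals of every array are given for members that were between or like triple and for the 8 largest differences each way. The remaining members, and the genes just outside the thresholds, were added after their values were seen. Alternatives changed the thresholds, the normalization, the filter, the variance model, the block and the arrays used. Lists of TIR-NBS-LRR and lipid-transfer genes could not be formed, since the gene table holds no descriptions.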

Additional observations from a re-analysis of the deposited data

Results flagged for a closer look

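Of the 39 members, 24 had wild-type arrays that spanned more than 0.1 log2 units, and in 3 of these 1 wild-type array stood apart from the other three by Dixon's criterion, which chance meets in about 1 of 20 groups. AT5G16200 had a log2 signal of 3.31 on wild-type array 3, against 3.63 on each of the others. AT5G56910 had 2.56 on wild-type array 2, against 3.28 to 3.35. The unnamed 267181_at had 3.16 on wild-type array 4, against 2.91 on each of the others. All 3 are on switches, and the array that stood apart was below the threshold of 4 in each, so none of these gaps decided membership.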

How the results depend on the processing

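With stricter thresholds of 3 and 7 the rule found 7 on and 3 off switches, in the double mutant states like triple, between and like wild type 0, 1 and 6 (on) and 3, 0 and 0 (off). With 1 threshold of 5 it found 129 on (22, 41 and 66) and 78 off (13, 12 and 53). With wild-type arrays 1 and 2 alone it found 47 on (8, 23 and 16) and 76 off (47, 26 and 3), and with arrays 3 and 4 alone 32 on (1, 15 and 16) and 22 off (9, 9 and 4). Quantile normalization put 1 on switch in the state like triple. Leaving out 1 array gave 28 to 49 on switches (0 to 2, 8 to 22 and 16 to 25) and 11 to 18 off switches (5 to 6, 1 to 6 and 3 to 6). The counts of members moved by over 1.5 times without triple mutant array 2 (49 on) and array 1 (18 off), where the rule asks less. Without double mutant array 2 the off switches between were 1 and those like wild type 5, and without wild-type array 3 those between were 5. The on switches like triple were 2 without triple mutant array 2 or either double mutant array, and 1 without wild-type array 2 or 3. Median centring and leaving out probe sets that can match several genes kept every count within 1.5 times.

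In the double mutant against wild type, 4 on and 4 off switches were called. Those counts were 0 and 1 with no filter on dim probe sets (12 of 22746 probe sets called in all, against 23 of 13888 as reported), 9 and 7 with wild-type arrays 1 and 2 alone (1790 of 13734), 3 and 6 with arrays 3 and 4 alone (49 of 13664), and 0 to 4 and 0 to 5 without 1 array (on 0 without double mutant array 1, and 2 without array 2 or wild-type array 1, 3 or 4). In the triple against the double mutant, 19 on and 2 off were called, with 0 to 19 and 0 to 3 without 1 array, and 5 off with wild-type arrays 1 and 2 alone and 4 with arrays 3 and 4. No pairing by replicate number was seen, as same-numbered arrays of different groups deviated with r from -0.096 to 0.0039. The check is weak, since each mutant has 2 arrays and the wild-type deviations carry the split between its pairs of arrays. The fit with the replicate number as a block called 7 on and 7 off switches in the double mutant (950 of 13888 probe sets) and 16 and 3 in the triple against the double mutant (74 of 13888). Wild type alone has replicates 3 and 4, so the block takes up those arrays. Its differences from wild type therefore rest on wild-type arrays 1 and 2. For 246025_at the double mutant difference was 3.84 log2 units with the block and with arrays 1 and 2 alone. Among refitted single genes and probe sets, 440 values stayed on their side of the threshold, 98 lost their call and 0 changed direction.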
